A study of Mus musculus with 4 samples.

Results

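The histone cluster genes encode the core and linker histones that package DNA. They were taken as every gene of the deposited expression table whose symbol begins with Hist1h, Hist2h, Hist3h or Hist4h, which gave 59 of 17604 genes: 6 of class H1, 16 of H2A, 16 of H2B, 8 of H3 and 13 of H4. Expression was given as FPKM (fragments scaled to transcript length and to the mapped total). A total of 28 of the 59 genes averaged at least 1 FPKM over the libraries, and 31 averaged less. Genes above 0 in all 4 libraries numbered 30, and 13 were above 0 in 1 library.

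The cells were primary epithelial cells isolated from the mouse colon, strain label C57BL/6, plated on Matrigel and left to attach for 24 h. The study asked how LIF (leukaemia inhibitory factor), which signals through the receptor subunit gp130, acts on these cells with and without the transcription factor Stat4. There were 4 groups with 1 library each: Stat4-/- cells given 20 ng/ml LIF, untreated Stat4-/- control cells, wild-type cells given 20 ng/ml LIF, and untreated wild-type control cells. The labels do not give the time in LIF of each sample, the age or sex of the mice, or the way the Stat4 allele was made. The design text speaks of duplicates, but no source used here says if replicates were merged into a column, so the spread seen here may be technical.

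Histones H3 and H4 form the inner tetramer of the nucleosome, H2A and H2B add to it as dimers, and the linker histone H1 binds the DNA between nucleosomes. The cluster genes are known as replication-dependent: most lack introns, are transcribed mainly while DNA is copied, and end their mRNA in a short stem-loop, bound by Slbp, in place of a poly(A) tail. In cells that have left the cycle, some of these genes are known to give polyadenylated mRNA as well, by splicing to a downstream exon or by reading past the stem-loop. The labels name a TruSeq RNA kit and total RNA as input, but not whether poly(A) RNA was selected, so the form of mRNA captured is not known here.

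Sequences of the annotated 3′ ends are shown first because the genes differ in them and because levels were later set against them. In the reference annotation (GENCODE, build mm10), 41 of the 59 genes held a stem-loop in a protein-coding transcript and 18 held none. Several of those 18 are annotated only to the end of the coding sequence, where no stem-loop could be found, so its absence describes the annotation. The stems are in capitals and the loop between them in lower case, with 5 flanking bases on each side.
Hist1h1c: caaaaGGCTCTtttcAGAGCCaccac
Hist2h2aa1: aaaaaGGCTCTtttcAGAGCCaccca
Hist3h2a: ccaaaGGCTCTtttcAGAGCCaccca
Hist1h1d: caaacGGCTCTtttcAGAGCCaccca
Hist1h4i: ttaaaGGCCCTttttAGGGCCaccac
Hist1h4h: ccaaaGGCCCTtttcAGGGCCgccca
Hist1h4a: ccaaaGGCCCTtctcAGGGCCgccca
The first 4 of these, of classes H1 and H2A, shared 1 core, whereas the H4 genes had a different stem and varied in the loop. The H4 core of Hist1h4h was found in 7 H4 genes, the core of Hist1h4i in 2, and the core of Hist1h4a in 1.

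The coding sequences show how close the copies are, which bears on how reads can be assigned. The first 60 coding bases of 4 H4 genes are given 5′ to 3′, with bases that differ from Hist1h4a in capitals.
Hist1h4a: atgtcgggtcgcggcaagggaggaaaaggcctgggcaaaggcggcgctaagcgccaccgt
Hist1h4i: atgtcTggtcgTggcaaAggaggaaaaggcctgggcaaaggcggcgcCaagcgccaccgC
Hist1h4h: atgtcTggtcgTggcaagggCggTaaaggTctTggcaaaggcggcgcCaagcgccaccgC
Hist2h4: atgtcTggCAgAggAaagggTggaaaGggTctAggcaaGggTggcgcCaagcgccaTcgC
Hist1h4i differed from Hist1h4a at 5 of these positions, Hist1h4h at 8 and Hist2h4 at 14. Over whole coding sequences of equal length, the median identity between a pair of genes was 91.5% in H2A, 94.4% in H2B, 97.2% in H3 and 93.9% in H4. There were 8 genes with a coding copy that was identical: Hist2h2aa1 with Hist2h2aa2, Hist1h2bq with Hist1h2br, Hist1h4m with Hist1h4n, and Hist1h2ao with Hist1h2ap. In 32 of the 59 genes, more than 50% of all 31-base words of the annotated transcripts also occurred in another gene. By class these were 0 of 6 H1 genes, 11 of 16 H2A, 9 of 16 H2B, 7 of 8 H3 and 5 of 13 H4. How the authors treated reads that fit several copies is not given in the sources used here, so single values of such copies are uncertain and sums over them were used as well.

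The genes lay in 4 places of the genome: 47 on chromosome 13 between bases 21715763 and 23934851, 9 on chromosome 3 between 96219865 and 96270132, 2 on chromosome 11 between 58948920 and 58956830, and 1 on chromosome 6 (136801553 to 136804415), all in mm10. The genes of chromosome 13 averaged 237.6 FPKM in sum, those of chromosome 3 136.3 FPKM and those of chromosome 11 30.7 FPKM. Of the 47 genes on chromosome 13, 19 averaged at least 1 FPKM, against 8 of the 9 on chromosome 3.

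For the libraries as a whole, fragment depth estimated from steps in the FPKM values was 27.6 M (mega, fragments) and 23.2 M in Stat4-/- LIF and control, and 22 M and 24.2 M in wild-type LIF and control. A single fragment on 500 bases then equals 0.0725 to 0.0909 FPKM, which covers counting error only. Stat4 was at 2.98 and 2.01 FPKM in the Stat4-/- LIF and control libraries, against 20.5 and 19.7 FPKM in wild-type LIF and control. The Y-linked gene Eif2s3y was at 0.10 and 0.02 FPKM in the Stat4-/- libraries, against 7.69 and 6.68 FPKM in wild type, so genotype and sex of the mice cannot be told apart. Epithelial markers were high in every library, with Krt8 at 2972 to 3173 FPKM and Epcam at 464 to 500 FPKM. Each marker found in the table of macrophages, T cells, B cells, fibroblasts, smooth muscle, endothelium and red cells was above 0 in every library.

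Histone cluster expression was concentrated in 4 genes. Hist2h2aa1 (H2A), Hist1h1c (H1), Hist1h2bc (H2B) and Hist3h2a (H2A) made up 77.1% and 80.1% of the summed FPKM of the 59 genes in Stat4-/- LIF and control, and 78.3% and 78.1% in wild-type LIF and control. The remaining 55 genes added 86.4 and 76.2 FPKM in Stat4-/- LIF and control, and 98.2 and 89.3 FPKM in wild-type LIF and control. These levels are per length, and the transcript lengths the authors divided by are not given: Hist1h1c, for instance, is annotated with 1560 bases in GENCODE and 725 in RefSeq, and Hist3h2a with 2146 and 508. Reading levels of genes against each other therefore carries that uncertainty, whereas comparisons of 1 gene across libraries do not.

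**Figure D1:**
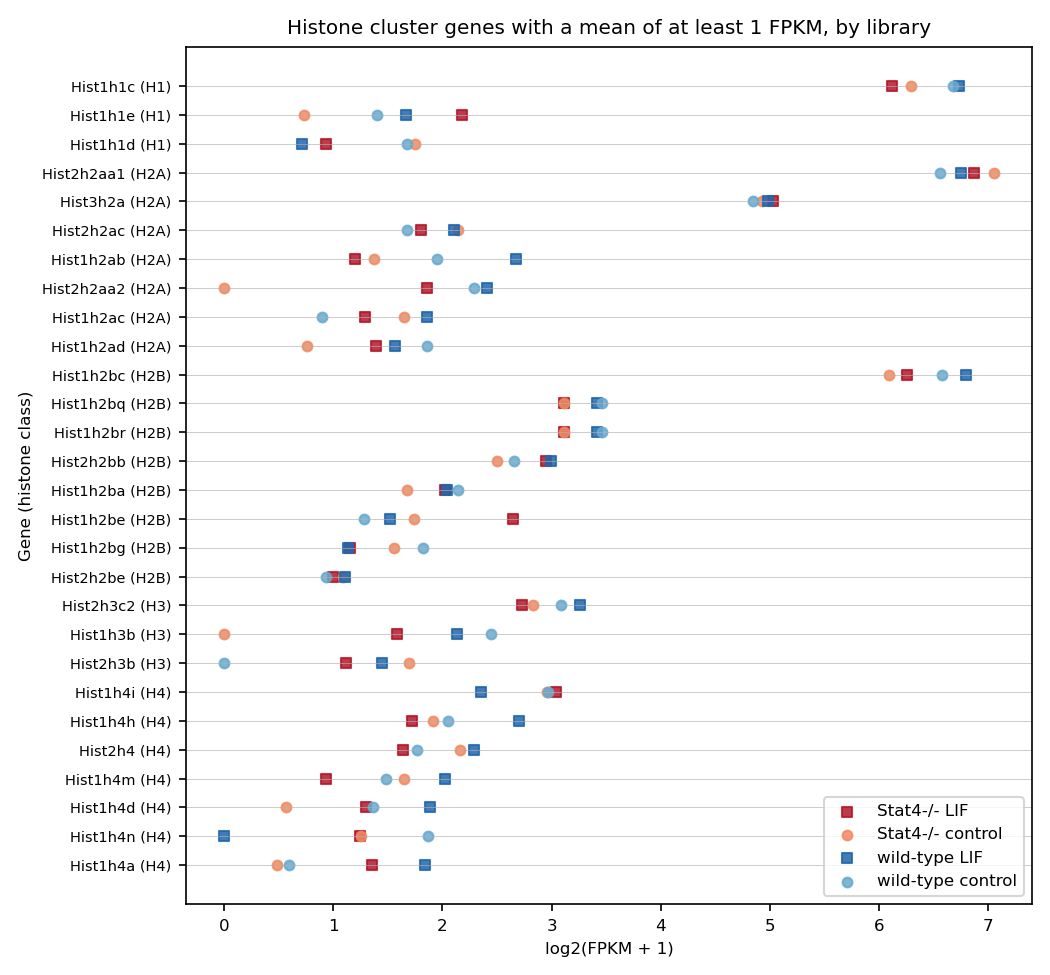
Log2(FPKM + 1) of the 28 histone cluster genes that averaged at least 1 FPKM, 1 row per gene grouped by class, with 1 point per library (squares LIF, circles control; red Stat4-/-, blue wild type). Hist1h1c, Hist2h2aa1, Hist3h2a and Hist1h2bc stand to the right of the other 24 genes in each of the 4 libraries, and points at 0 mark genes listed at 0 in a library.

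Among the linker histones, Hist1h1c (ENSMUSG00000036181, chromosome 13, 23738808 to 23740367, plus strand, a single exon) was the main gene. It was at 68.4 and 77.5 FPKM in Stat4-/- LIF and control, against 106 and 102 FPKM in wild-type LIF and control. Both Stat4-/- libraries lay below both wild-type libraries, whereas LIF and control libraries overlapped. Hist1h1e was at 3.53 and 0.66 FPKM in Stat4-/- LIF and control and at 2.17 and 1.64 FPKM in wild-type LIF and control, and Hist1h1d was at 0.91 and 2.36 FPKM in Stat4-/- LIF and control and at 0.64 and 2.19 FPKM in wild-type LIF and control. Hist1h1a, Hist1h1b and the testis linker histone Hist1h1t reached at most 0.37 FPKM in any library.

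In the H2A class, Hist2h2aa1 (ENSMUSG00000064220, chromosome 3, 96245497 to 96246082, plus strand, a single exon) was at 116 and 132 FPKM in Stat4-/- LIF and control, against 107 and 93.7 FPKM in wild-type LIF and control. Both Stat4-/- libraries lay above both wild-type libraries. Its copy Hist2h2aa2, with an identical coding sequence, was at 2.62 FPKM in Stat4-/- LIF and listed at 0 in Stat4-/- control, against 4.31 and 3.90 FPKM in wild-type LIF and control. All 31-base words of Hist2h2aa2 occurred in other genes (100%), so its values and its zero rest on how reads were shared out. The sum of the 2 copies was 119 and 132 FPKM in Stat4-/- LIF and control, against 111 and 97.6 FPKM in wild-type LIF and control. Hist3h2a (ENSMUSG00000078851, chromosome 11, 58954685 to 58956830, plus strand) was nearly even over the libraries, at 31.6 and 29.4 FPKM in Stat4-/- LIF and control and 30.7 and 27.8 FPKM in wild-type LIF and control. Its annotated span overlaps Trim17, and whether counting used strand is not stated. Hist2h2ac was at 2.49 and 3.41 FPKM in Stat4-/- LIF and control and at 3.31 and 2.19 FPKM in wild-type LIF and control. The other 12 H2A genes had means of 0.06 to 2.79 FPKM, 9 of them under 1 FPKM.

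In the H2B class, Hist1h2bc (ENSMUSG00000018102, chromosome 13, 23684199 to 23692908, plus strand, 2 exons) led with 75.4 and 67.5 FPKM in Stat4-/- LIF and control, against 111 and 94.8 FPKM in wild-type LIF and control. Both Stat4-/- libraries were below both wild-type libraries, and within each genotype the LIF library was the higher one. Hist1h2bq and Hist1h2br were listed with the same value in every library, 7.66 and 7.67 FPKM in Stat4-/- LIF and control and 9.67 and 10.02 FPKM in wild-type LIF and control. Hist2h2bb was at 6.74 and 4.65 FPKM in Stat4-/- LIF and control and at 6.95 and 5.32 FPKM in wild-type LIF and control. Hist1h2ba, known as a testis H2B, was above 0 in every library at 2.20 to 3.42 FPKM. Of the 16 H2B genes, 8 averaged under 1 FPKM.

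The H3 genes were low: Hist2h3c2 led with 5.64 and 6.09 FPKM in Stat4-/- LIF and control, against 8.56 and 7.48 FPKM in wild-type LIF and control. Hist1h3b was at 1.99 FPKM in Stat4-/- LIF and listed at 0 in Stat4-/- control, against 3.39 and 4.46 FPKM in wild-type LIF and control. Hist2h3b, whose coding sequence differs from that of Hist2h3c2 at 1 base, was at 1.17 and 2.24 FPKM in Stat4-/- LIF and control and at 1.73 FPKM in wild-type LIF, and was listed at 0 in wild-type control. The other 5 H3 genes averaged 0.162 to 0.740 FPKM.

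The H4 genes had the highest class median, 1.26 FPKM, against 0.862 for H1, 0.684 for H2A, 0.914 for H2B and 0.674 for H3. Hist1h4i was at 7.23 and 6.78 FPKM in Stat4-/- LIF and control and at 4.12 and 6.82 FPKM in wild-type LIF and control, where the wild-type LIF library stood lowest. Hist1h4h was at 2.29 and 2.77 FPKM in Stat4-/- LIF and control, against 5.50 and 3.14 FPKM in wild-type LIF and control. Hist2h4 was at 2.11 and 3.48 FPKM in Stat4-/- LIF and control and at 3.90 and 2.41 FPKM in wild-type LIF and control. Of the 13 H4 genes, 6 averaged under 1 FPKM, and Hist1h4k at 0.938 FPKM and Hist1h4a at 1.26 FPKM were the H4 genes on either side of that limit.

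**Figure D2:**
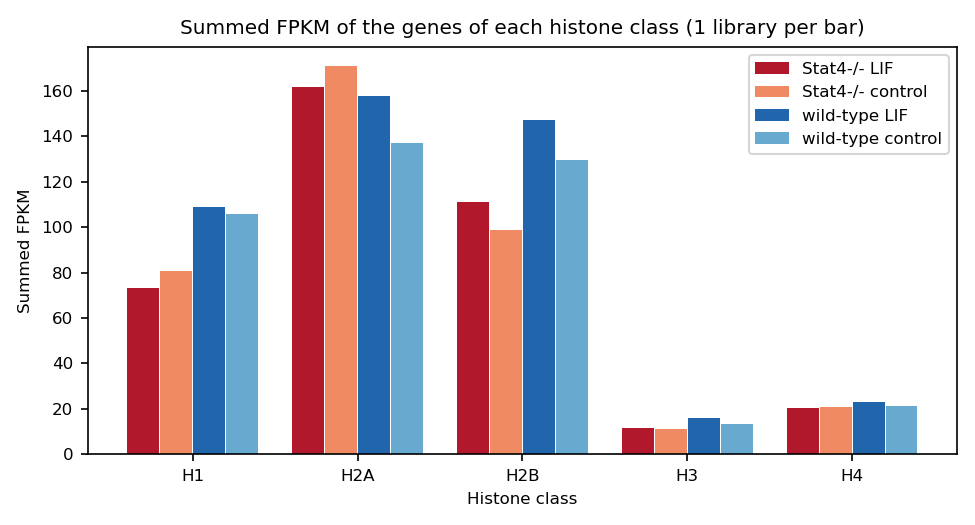
Summed FPKM of all genes of each histone class in each library, with 1 bar per library and bars starting at 0. The H2A bars run from 137 to 171 FPKM, and the H3 bars, the lowest, from 11.2 to 15.7 FPKM.

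Sums over a class are less affected by the sharing of reads among copies. The H1 sum was 73.4 and 80.5 FPKM in Stat4-/- LIF and control, against 109 and 106 FPKM in wild-type LIF and control, a ratio of Stat4-/- over wild type of 0.674 with LIF and 0.760 without. The H2B sum was 111 and 98.9 FPKM in Stat4-/- LIF and control, against 147 and 129 FPKM in wild-type LIF and control, with ratios of 0.755 and 0.764. For both classes the 2 Stat4-/- libraries lay below the 2 wild-type ones. The H2A sum ran the other way, at 162 and 171 FPKM in Stat4-/- LIF and control, against 158 and 137 FPKM in wild-type LIF and control, with ratios of 1.03 and 1.245. The H3 sum was 11.6 and 11.2 FPKM in Stat4-/- LIF and control, against 15.7 and 13.5 FPKM in wild-type LIF and control, and the H4 sum was 20.2 and 20.9 FPKM in Stat4-/- LIF and control, against 22.9 and 21.3 FPKM in wild-type LIF and control. Single genes made up most of 3 of these sums. Hist1h1c was 93.2 to 97.1% of the H1 sum over the libraries, and Hist2h2aa1 67.9 to 77.1% of the H2A sum. Hist1h2bc was 67.9 to 75.2% of the H2B sum. The H1, H2A and H2B ratios therefore largely restate these genes and do not describe the whole class. With 1 library per group the sums have no replicate check. In such bulk RNA, fewer cells expressing a gene and less RNA per cell cannot be told apart.

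For the effect of the Stat4 genotype, both Stat4-/- libraries were set against both wild-type libraries, with LIF as a second term, in a limma fit over all 12274 genes that averaged at least 1 FPKM. Of the 28 histone genes tested, 9 fell in Stat4-/- cells (32.1%), against 7.68% of all genes tested, and 2 rose (7.14%), against 7.81%. The genes that fell were Hist1h1c, the H2A genes Hist1h2ab and Hist2h2aa2, the H2B genes Hist1h2bc, Hist1h2bq and Hist1h2br, the H3 genes Hist2h3c2 and Hist1h3b, and the H4 gene Hist1h4d. The genes that rose were Hist2h2aa1 and Hist1h2be. The median coefficient was -0.19 over the 28 genes and -0.01 over all genes tested, on the log2(FPKM + 1) scale.

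Hist1h1c fell by 0.51 on that scale (SE 0.056, limma adjusted p = 0.000129), and it was lower in Stat4-/- cells both with and without LIF. Hist1h2bc fell by 0.52 (SE 0.045, limma adjusted p = 2.32e-05), again in both treatments. These 2 genes share few sequence words with others, 11.4% for Hist1h1c and 32.6% for Hist1h2bc. Without the mean-variance trend of limma neither call held, at adjusted p of 0.0759 and 0.0524, the highest over 7 alternative fits.

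Hist1h2bq and Hist1h2br each fell by 0.32 (SE 0.087, limma adjusted p = 0.0285), and their sum fell by 0.34 (SE 0.069, limma adjusted p = 0.00652). Hist2h3c2 fell by 0.39 (SE 0.10, limma adjusted p = 0.0248). The 3 genes were lower in Stat4-/- cells in both treatments. The fit takes a difference between treatments as error. Agreement over treatments, here and for Hist1h1c and Hist1h2bc, is therefore part of each call and no separate support.

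Hist1h2ab was at 1.3 and 1.59 FPKM in Stat4-/- LIF and control, against 5.39 and 2.86 FPKM in wild-type LIF and control, and fell by 1.03 (SE 0.19, limma adjusted p = 0.00354). Hist1h4d was at 1.46 and 0.48 FPKM in Stat4-/- LIF and control, against 2.69 and 1.57 FPKM in wild-type LIF and control, and fell by 0.69 (SE 0.15, limma adjusted p = 0.011). The Stat4-/- libraries lay below the wild-type libraries in both genes, although for Hist1h4d the Stat4-/- LIF and wild-type control values nearly met. Hist1h4d stayed below an adjusted p of 0.05 in all 6 alternative fits it entered (0.0104 to 0.0498). Hist1h3b fell by 1.501 (SE 0.32, limma adjusted p = 0.00808) and Hist2h2aa2 fell by 1.42 (SE 0.29, limma adjusted p = 0.00732), sizes that depend on the pseudocount because each gene was listed at 0 in the Stat4-/- control library.

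Hist2h2aa1 rose by 0.30 (SE 0.069, limma adjusted p = 0.0129), and summed with its copy Hist2h2aa2 it rose by 0.26 (SE 0.065, limma adjusted p = 0.0195), so the sum moved with the major copy. Hist1h2be was at 5.27 and 2.34 FPKM in Stat4-/- LIF and control, against 1.87 and 1.43 FPKM in wild-type LIF and control, and rose by 0.79 (SE 0.16, limma adjusted p = 0.00746). Its annotated span overlaps that of Hist1h1e on the same strand, and both genes were highest in the Stat4-/- LIF library, so their reads cannot be fully told apart. Hist3h2a did not pass the test, at 0.06 (limma adjusted p = 0.545), nor did Hist1h4h at -0.56 (limma adjusted p = 0.0518) or Hist1h2ad at -0.64 (limma adjusted p = 0.0533). Of the 11 genotype calls, those of Hist1h2bq, Hist1h2br, Hist2h3c2, Hist1h2ab, Hist1h3b, Hist2h2aa1, Hist2h2aa2 and Hist1h2be were lost with no filter on low values and again with no variance trend, at adjusted p of up to 0.209. Hist1h3b and Hist1h4d averaged under 1 FPKM in Stat4-/- cells, at 0.995 and 0.97 FPKM, and met the limit of 1 FPKM through wild type, at 3.93 and 2.13 FPKM. With the 3 pairs of copies that entered the test summed, 2 of 25 entries rose and 7 fell. The shares over all genes were 7.87% and 7.74%.

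**Figure D3:**
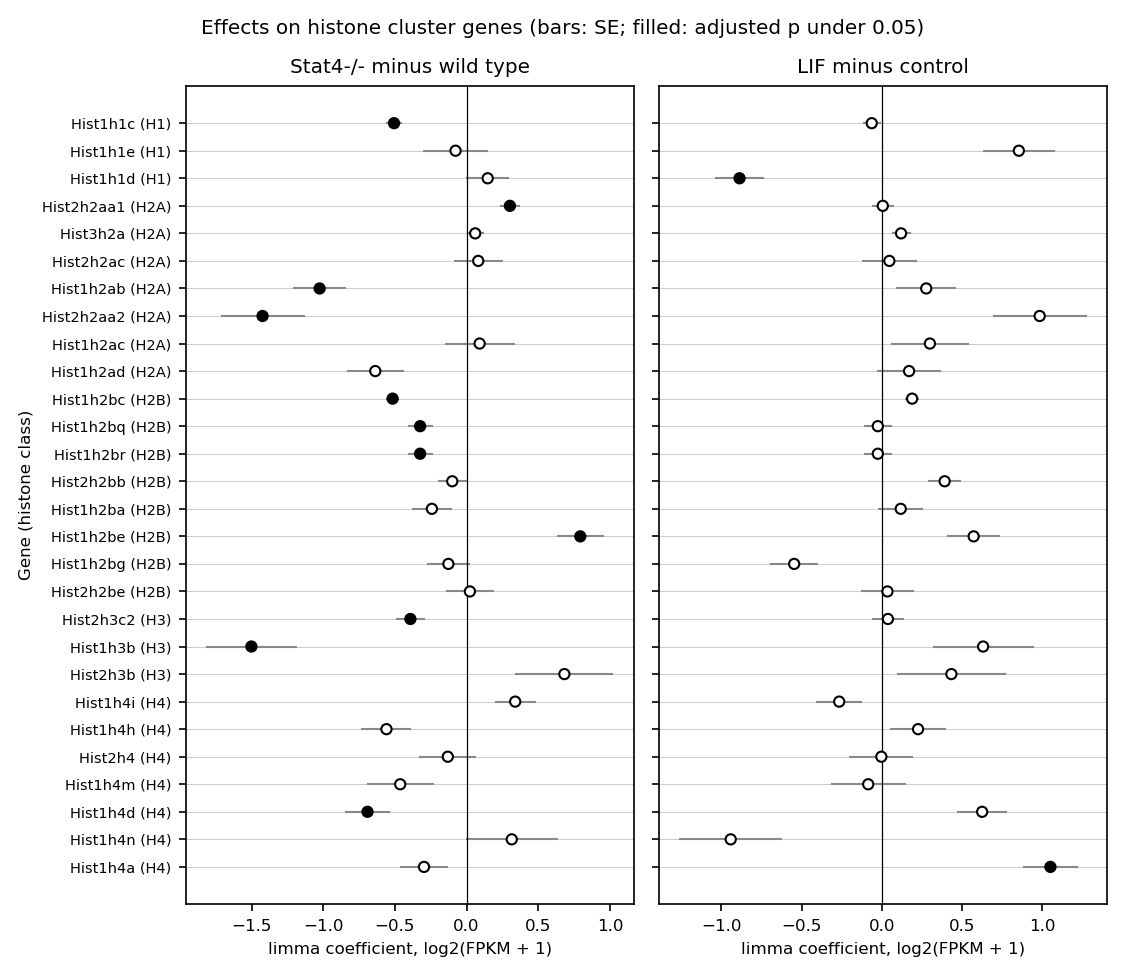
limma coefficients on log2(FPKM + 1) for the 28 histone cluster genes tested, Stat4-/- minus wild type on the left and LIF minus control on the right, with bars of 1 SE and filled points at an adjusted p under 0.05. On the left 9 filled points lie below 0 and 2 above, and on the right the filled points are Hist1h1d at -0.89 and Hist1h4a at 1.05.

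Markers of other cells differed between the genotypes too, where 7.81% of all genes tested rose and 7.68% fell. Smooth muscle markers summed to 220 and 244 FPKM in Stat4-/- LIF and control, against 169 and 178 FPKM in wild-type LIF and control, and 4 of 5 rose and 1, Acta2, fell. Endothelial markers summed to 201 and 191 FPKM in Stat4-/- LIF and control, against 159 and 165 FPKM in wild-type LIF and control, and 3 of 4 rose. Of the B and plasma cell markers, 4 of 5 rose and Jchain fell, with sums of 28.9 and 19.4 FPKM in Stat4-/- LIF and control, against 33.5 and 34.0 FPKM in wild-type LIF and control. Epithelial markers summed to 7669 and 8186 FPKM in Stat4-/- LIF and control, against 8365 and 8563 FPKM in wild-type LIF and control, and 3 of 8 (Krt19, Krt20 and Vil1) fell. Macrophage markers summed to 43.6 and 51.2 FPKM in Stat4-/- LIF and control, against 50.9 and 49.7 FPKM in wild-type LIF and control, with 1 of 6 lower. Fibroblast markers summed to 274 and 280 FPKM in Stat4-/- LIF and control, against 279 and 270 FPKM in wild-type LIF and control, with 1 of 6 higher and 1 lower. Red cell markers summed to 15.6 and 13.5 FPKM in Stat4-/- LIF and control, against 22.1 and 21.7 FPKM in wild-type LIF and control, and 2 of 3 tested fell. T cell markers summed to 2.8 to 4.8 FPKM in each library, and the 2 tested gave 0 limma calls and 0 at an unadjusted p under 0.05. For LIF, limma called 0 genes of these marker lists, with unadjusted p under 0.05 in 4 epithelial, 3 smooth muscle, 2 fibroblast, 2 B cell, 1 macrophage and 1 red cell gene. The part of these cells in the histone differences was not tested.

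For the effect of LIF, both LIF libraries were set against both control libraries in the same limma fit. Among the 28 histone genes 1 rose, against 0.701% of all genes tested, and 1 fell, against 0.122%; at an unadjusted p under 0.05 there were 7 higher (25.0%), against 8.0% of all genes, and 3 lower (10.7%), against 4.52%. Hist1h4a was at 1.55 and 2.57 FPKM in the Stat4-/- and wild-type LIF libraries, against 0.40 and 0.51 FPKM in their controls, and rose by 1.05 (SE 0.17, limma adjusted p = 0.0218). Hist1h1d was at 0.91 and 0.64 FPKM in the Stat4-/- and wild-type LIF libraries, against 2.36 and 2.19 FPKM in their controls, and fell by 0.89 (SE 0.15, limma adjusted p = 0.0288). The direction was the same in both genotypes. The fit takes a difference between genotypes as error, so this agreement is part of the call and no separate support.

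The fragments behind these calls depend on the transcript length used, which is not known here. At its RefSeq length of 455 bases, Hist1h4a had an estimated 19.5 and 25.7 fragments in the Stat4-/- and wild-type LIF libraries, against 4.2 and 5.6 in their controls, and its GENCODE length of 539 bases gave similar values. Hist1h1d had 19.5 and 10.9 fragments with LIF, against 42.5 and 41.1 in the Stat4-/- and wild-type controls, at its RefSeq length of 776 bases. At its GENCODE length of 7425 bases it had 186.5 and 104.5 with LIF, against 406.5 and 393.5 in those controls. Both genes entered the test through 1 side of the comparison: Hist1h4a averaged 2.06 FPKM with LIF and 0.455 FPKM without, and Hist1h1d 0.775 FPKM with LIF and 2.275 FPKM without, so the limit of 1 FPKM was met through the higher side. With no filter limma called neither, at an adjusted p of 0.371 for each. Under alternative settings, Hist1h4a was called in 3 of 6 fits and Hist1h1d in 2 of 6, with adjusted p up to 0.547. Hist1h4a shares 47.9% of its sequence words with other genes, and Hist1h1d 3.5%.

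None of the 4 most abundant histone genes passed the test for LIF. Hist1h2bc had a coefficient of 0.19 (limma adjusted p = 0.0875) with the LIF library higher in both genotypes. Hist3h2a had one of 0.12 (limma adjusted p = 0.439), Hist2h2aa1 one of 0.007 (limma adjusted p = 0.98) and Hist1h1c one of -0.06 (limma adjusted p = 0.731). Of the lower genes, Hist2h2bb had a coefficient of 0.39 (limma adjusted p = 0.108) and Hist1h1e one of 0.86 (limma adjusted p = 0.115). The median LIF coefficient was 0.12 over the 28 genes, 19 of them positive, and -0.001 over all genes tested.

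Within each genotype the LIF difference has no test, and genes were counted where log2(FPKM + 1) differed by at least 1 (2-fold). In Stat4-/- cells 3 of the 28 genes were at least that much higher with LIF, against 0.0652% of all genes, and 0 lower, against 0.057%. These were Hist2h2aa2, Hist1h3b and Hist1h1e, of which the first 2 were listed at 0 in the control. In wild-type cells 2 were higher, against 0.0652% of all genes, namely Hist1h4a and Hist2h3b, and 1 was lower, against 0.0652%, namely Hist1h4n, at 0 with LIF and 2.66 FPKM without. Hist2h2aa2 and Hist1h4n have identical coding copies. With Hist2h2aa1, Hist2h2aa2 summed to 119 and 132 FPKM in Stat4-/- LIF and control, which is lower with LIF. With Hist1h4m, Hist1h4n summed to 3.07 and 4.45 FPKM in wild-type LIF and control, short of 2-fold. The 2-fold counts were not repeated with copies summed. The median difference was -0.007 in Stat4-/- cells, against -0.006 over all genes, and 0.18 in wild-type cells, against 0.004 over all genes. The 2 comparisons share no library, and the difference between them was not tested because 4 libraries leave no residual degree of freedom for it.

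Between genotypes, the same count gave 2 genes higher in Stat4-/- LIF than in wild-type LIF, against 0.293% of all genes, and 2 lower, against 0.456%. The higher ones were Hist1h2be and Hist1h4n, and the lower ones Hist1h2ab and Hist1h4m. Hist1h4n was at 1.37 FPKM in Stat4-/- LIF and listed at 0 in wild-type LIF. Hist1h4m was at 0.91 FPKM in Stat4-/- LIF, against 3.07 FPKM in wild-type LIF, but it has the same coding sequence as Hist1h4n, and their sum was 2.28 FPKM in Stat4-/- LIF, against 3.07 FPKM in wild-type LIF. Without LIF, 1 gene was higher in Stat4-/- control than in wild-type control, against 0.318% of all genes, namely Hist2h3b, and 3 were lower, against 0.285%, namely Hist2h2aa2, Hist1h3b and Hist1h2ad. The last of these was at 0.69 FPKM in Stat4-/- control, against 2.62 FPKM in wild-type control. Summed with its identical copy Hist2h2aa1, Hist2h2aa2 was higher in Stat4-/- control, at 132 FPKM, than in wild-type control, at 97.6 FPKM. Of the 10 genes named by these counts, Hist2h2aa2, Hist1h3b, Hist2h3b and Hist1h4n are listed at 0 in 1 library, and no fold is given for them.

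Set against the annotated 3′ ends, the levels differed by group. The 4 genes with no stem-loop whose transcript was spliced or carried a poly(A) signal (Hist1h2bc, Hist1h2bq, Hist1h2br and Hist2h2be) had a median of 8.76 FPKM and a range of 1.045 to 87.1. That median is the shared value of Hist1h2bq and Hist1h2br, which have an identical coding sequence. The 21 genes whose annotated transcript runs on at least 100 bases past the stem-loop had a median of 1.53 FPKM and a range of 0.062 to 88.4, and Hist1h1c and Hist3h2a were among them, with 840 and 1643 bases after the stem-loop. The 20 genes ending within 100 bases of the stem-loop had a median of 0.624 FPKM, and 1 of them, Hist2h2aa1 with 35 bases after it, averaged 5 FPKM or more. The 14 remaining genes, unspliced with no stem-loop or poly(A) signal annotated, had a median of 0.316 FPKM. Several of them are annotated without a 3′ untranslated part. Hist1h2bl, for instance, has 381 bases in GENCODE, 378 of them coding, and 473 in RefSeq, and Hist1h4k has 312, 309 and 409. This group therefore reflects incomplete annotation at least in part. Longer annotated transcripts also change the length by which FPKM is divided, and the part of this in the differences was not tested.

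**Figure D4:**
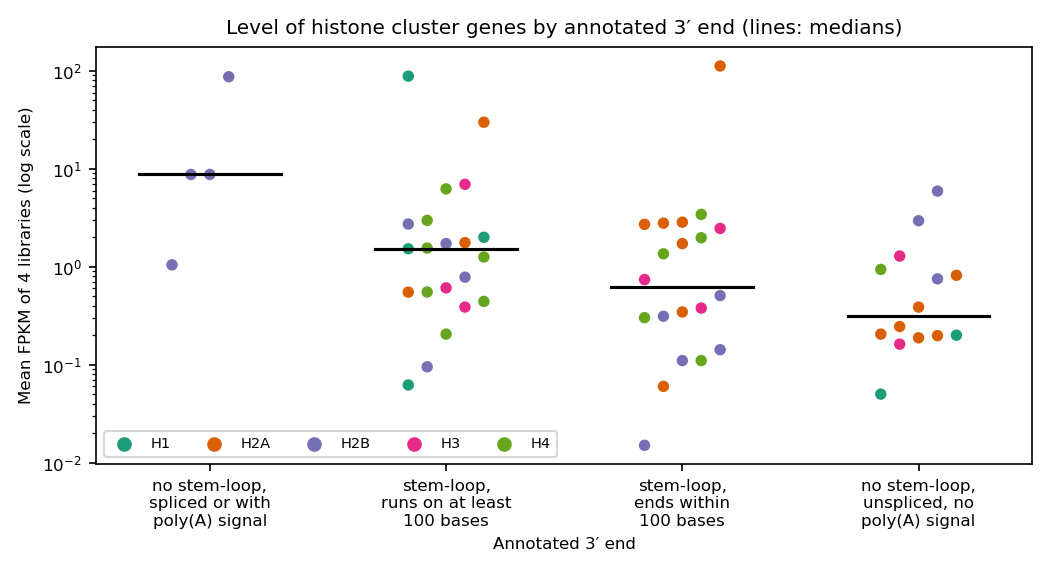
Mean FPKM over the 4 libraries on a log scale for the 59 histone cluster genes, by annotated 3′ end, coloured by class, with lines at the group medians. The medians are 8.76 FPKM for the 4 spliced or poly(A)-signal genes, 1.53 and 0.624 FPKM for the genes with a long or short end after the stem-loop, and 0.316 FPKM for the rest. The first median is the shared value of the identical coding copies Hist1h2bq and Hist1h2br.

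H2A and H2B genes often lie head to head with a shared start region. There were 10 such pairs with RefSeq starts under 300 bases apart, and their partners differed in level. Hist1h2bc averaged 87.1 FPKM and its partner Hist1h2ac 1.76 FPKM, and Hist1h2bq averaged 8.76 FPKM against 0.06 FPKM for Hist1h2ao. In 4 of the 10 pairs the H2A gene had the higher mean, among them Hist2h2ac at 2.85 FPKM beside Hist2h2be at 1.045 FPKM. The region between Hist1h2ac, transcribed to the left, and Hist1h2bc, transcribed to the right, is chr13:23683960-23684198 (GRCm38.p6, plus strand, 239 bases), and is shown because its pair had the widest difference in log2(mean FPKM + 1). Capitals mark motifs found by script.
Hist1h2ac-Hist1h2bc: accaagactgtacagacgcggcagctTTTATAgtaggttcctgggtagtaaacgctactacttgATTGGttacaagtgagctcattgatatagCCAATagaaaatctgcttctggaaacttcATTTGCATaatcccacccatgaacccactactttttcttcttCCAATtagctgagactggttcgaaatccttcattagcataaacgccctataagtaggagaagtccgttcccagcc
In capitals from left to right stand TATAAA on the minus strand (bases 27 to 32, counted from the first base shown), CCAAT on the minus strand (65 to 69), CCAAT on the plus strand (94 to 98), the octamer ATTTGCAT on the plus strand (123 to 130) and CCAAT on the plus strand (165 to 169). The octamer is known as a binding motif of Pou2f1, which activates H2B genes in S phase.

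**Figure D5:**
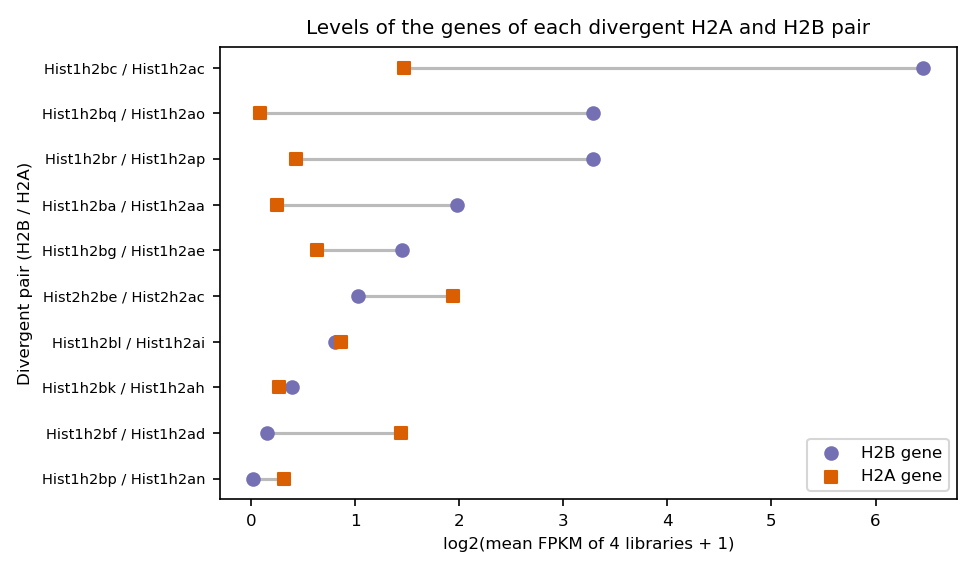
Log2(mean FPKM over the 4 libraries + 1) of the H2B gene (circle) and the H2A gene (square) of each of 10 divergent pairs, 1 pair per row. The longest line joins Hist1h2bc at 87.1 FPKM to Hist1h2ac at 1.76 FPKM.

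Motifs were then counted on both strands in RefSeq promoters, from 250 bases before to 50 after the start, for 55 of the 59 genes and 27025 promoters in all. The octamer ATTTGCAT was in 7 of 16 H2A promoters (43.8%) and 5 of 14 H2B promoters (35.7%), against 1.75% of all promoters, and in none of the 6 H1, 7 H3 and 12 H4 promoters. CCAAT was in all 6 H1, 16 H2A, 14 H2B and 7 H3 promoters and in 3 of 12 H4 promoters, against 37.9% of all. TATAAA was in 4 of 6 H1, 10 of 16 H2A, 7 of 14 H2B, 3 of 7 H3 and 8 of 12 H4 promoters, against 14.2% of all. Divergent partners share part of these windows, and a match describes letters only.

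The replication-independent histones, made outside S phase as well and mostly from genes with introns and polyadenylated mRNA, were set beside the cluster genes. The 11 genes summed to 1015 and 958.0 FPKM in Stat4-/- LIF and control and 997 and 929 FPKM in wild-type LIF and control. The 59 cluster genes summed to 378 and 382 FPKM in Stat4-/- LIF and control and 452 and 407 FPKM in wild-type LIF and control. H3f3b, which encodes the replacement histone H3.3, was at 383 and 359 FPKM in Stat4-/- LIF and control and 367 and 326 FPKM in wild-type LIF and control. H3f3a, for the same protein, was at 251 to 280 FPKM, H2afz (H2A.Z) at 111 to 130 FPKM and H2afy (macroH2A) at 70.6 to 77.0 FPKM. Among the listed H3 genes, H3f3b had the highest FPKM in each of the 4 libraries. For genotype 1 of the 11 rose, the H2A variant gene H2afj, by 0.24 (SE 0.049, limma adjusted p = 0.00639), at 65.0 and 63.6 FPKM in Stat4-/- LIF and control, against 53.9 and 54.4 FPKM in wild-type LIF and control. For LIF limma called 0 of the 11, with 3 at an unadjusted p under 0.05. Over all genes tested, 7.81% rose for genotype, and 0.701% rose and 0.122% fell for LIF. At an unadjusted p under 0.05 the LIF shares over all genes were 8.0% higher and 4.52% lower.

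Factors that act on histone genes and histones were tested in the same fit. Over all genes tested, limma called 7.81% higher and 7.68% lower for genotype, and 0.701% and 0.122% for LIF. At an unadjusted p under 0.05 these shares were 14.4% and 15.0% for genotype, and 8.0% and 4.52% for LIF. Of 17 tested genes for histone gene transcription and 3′ processing, limma called 0 for genotype and 0 for LIF, with 0 and 1 at an unadjusted p under 0.05. Slbp, which binds the stem-loop, was at 32.2 and 28.8 FPKM in Stat4-/- LIF and control and 30.1 and 30.0 FPKM in wild-type LIF and control. Srrt, Upf1 and Zcchc6, the other most abundant genes of the list, were at 26.7 to 53.0 FPKM. Of 16 histone chaperones, limma called 0 for LIF, with 2 at an unadjusted p under 0.05, and 1 rose in Stat4-/- cells: Daxx, a chaperone of H3.3, at 30.7 and 29.3 FPKM in Stat4-/- LIF and control, against 24.1 and 21.5 FPKM in wild-type LIF and control (0.38, SE 0.062, limma adjusted p = 0.00168). Without the variance trend the calls of H2afj and Daxx were lost. The most abundant chaperone, Nap1l1, was at 157 to 167 FPKM.

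Among genes of DNA replication and mitosis, 1 of each list passed the test for LIF. Pcna, the sliding clamp of DNA polymerase, rose with LIF, at 128 and 127 FPKM in the Stat4-/- and wild-type LIF libraries, against 109 and 110 FPKM in their controls (0.22, SE 0.042, limma adjusted p = 0.0408), and it was the 1 gene called among 24. Cks2, a Cdk subunit, rose too, at 25.6 and 25.0 FPKM with LIF, against 20.1 and 19.6 FPKM in the Stat4-/- and wild-type controls (0.33, SE 0.064, limma adjusted p = 0.0407), and it was the 1 gene called among 12 tested mitosis genes. Neither LIF call held with a pseudocount of 0.1, no filter, median-of-ratios scaling or no variance trend. The proliferation marker Mki67 was at 2.35 and 2.71 FPKM in Stat4-/- LIF and control and 1.89 and 2.45 FPKM in wild-type LIF and control. For genotype limma called 0 of the 24 replication genes and 0 of the 12 mitosis genes, with 4 and 0 at an unadjusted p under 0.05. Over all genes tested, 0.701% rose for LIF, and 7.81% rose and 7.68% fell for genotype. At an unadjusted p under 0.05 the genotype shares over all genes were 14.4% higher and 15.0% lower.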

How the data were processed

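RNA of 4 groups of mouse colonic epithelial cells was sequenced, with 1 column per group. The submitters' processing notes name HISAT, Bowtie2 and mm10. The program that made the FPKM, its annotation and its lengths are not given in the labels or files. Per the file headers, the authors deposited FPKM, here rounded to 2 decimals. Depth was estimated from genes of 300 to 1500 bases whose low FPKM step in whole fragments; 61.7 to 69.9% of such values were whole fragments to within 0.15. Differences were taken on log2(FPKM + 1) for the 12274 genes averaging at least 1 FPKM. A limma fit (version 3.58.1, R 4.3.3; additive LIF and genotype terms, mean-variance trend, two-sided, Benjamini-Hochberg over all genes, threshold 0.05) had 1 residual and 10.2 prior degrees of freedom and counts the interaction as error. On simulated LIF effects in 12274 genes, it recovered 42% of changes of 0.3 and 97% of changes of 1 (log2), with 7 false calls among 146. Being a simulation, this check cannot give the rate of false calls in the real data, where each group has 1 library. Sequences and positions came from GENCODE M21 (mm10) and RefSeq (GRCm38.p6), which matched all 59 genes. Alternatives were the pseudocount, the filter, the scaling, the variance trend and summed copies. The histone genes and other lists were chosen with earlier results of these data known. Named genes were the 3 highest of each class, those past 2-fold and those called by limma, with up to 4 per other list and any called.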

Additional observations from a re-analysis of the deposited data

Results flagged for a closer look

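In 5 of the 28 histone genes that averaged at least 1 FPKM (17.9%), the LIF effect on the log2(FPKM + 1) scale had opposite signs in Stat4-/- and wild-type cells and differed by at least 1, against 33 of all 12274 genes tested (0.269%). Of the 31 lower histone genes, Hist1h2bk, Hist1h3e and Hist1h4c did so too, but no share of all genes under 1 FPKM was computed. Hist1h2bk was listed at 0 in Stat4-/- LIF and wild-type control, and Hist1h3e and Hist1h4c at 0 in Stat4-/- control. The difference between the effects was not tested, since 4 libraries leave no residual degree of freedom for an interaction. Hist2h3b had the widest gap, -2.03, with -0.58 in Stat4-/- and 1.45 in wild-type cells, and it is listed at 0 in wild-type control. Hist1h3b differed by 1.89, with 1.58 in Stat4-/- and -0.31 in wild-type cells, and it is listed at 0 in Stat4-/- control. Hist1h2ac differed by -1.32 (-0.36 in Stat4-/- and 0.96 in wild-type cells), Hist1h4m by -1.26 (-0.71 and 0.54) and Hist2h4 by -1.05 (-0.53 and 0.52). Hist1h4m has an identical coding copy, Hist1h4n, and Hist2h3b and Hist1h3b share 80.6% and 61.9% of their sequence words with other genes. The values of these 3 genes depend on how reads were shared. Hist1h4m and Hist1h4n summed to 2.28 and 3.52 FPKM in Stat4-/- LIF and control, and to 3.07 and 4.45 FPKM in wild-type LIF and control. That sum was lower with LIF in both genotypes, so the opposite signs of Hist1h4m did not hold for it. The count of 5 genes was not repeated with copies summed. At RefSeq length, Hist1h2ac had an estimated 10.1 to 28.1 fragments per library and Hist2h4 22.4 to 32.9. The share over all genes was not matched for level, length or shared sequence.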

How the results depend on the processing

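No paired analysis was possible because the groups share only 1 replicate number. Leaving out a library was not run as a test, since 3 libraries and 3 coefficients leave no residual degree of freedom. Of 100 values of counts and class ratios under alternatives, 62 stayed within 1.5 times (counts) or within counting error (ratios), and 38 moved. Every class ratio held under median-of-ratios scaling, but scaling factors of 0.9912 to 1.008 could hardly move a ratio. For LIF, the 1 gene higher became 0 with no filter, with median-of-ratios scaling, with no variance trend or at a mean of at least 5 FPKM, and the 1 lower became 0 under these and with a pseudocount of 0.1. In those limma fits 2 to 13 genes were higher (21.4 to 28.6%) and 0 to 3 lower (0 to 10.7%) at an unadjusted p under 0.05. Over all genes the shares were 4.82 to 9.64% and 3.44 to 4.96%. After adjustment, the same fits called 0 to 1.27% of all genes higher and 0.00568 to 0.192% lower. For genotype, the 2 higher became 1 of 9 at a mean of at least 5 FPKM and 0 of 28 without the trend. The shares of all genes higher were 10.1% and 1.0%. The 9 lower became 5 of 59 with no filter, 5 of 9 at a mean of at least 5 FPKM and 1 of 28 without the trend. The shares of all genes lower were 2.03%, 9.27% and 1.04%. Leaving out genes that share more than 50% of their words, an alternative chosen after seeing the data, left 14 genes with 1 higher and 3 lower. The share over all genes was not recomputed for it, and in the main fit was 7.81% higher and 7.68% lower.

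For 2-fold counts, a pseudocount of 0.1 gave 7 higher and 2 lower with LIF in Stat4-/- cells and 3 lower with LIF in wild-type cells, and 2 higher and 5 lower for Stat4-/- control against wild-type control. Over all 12274 genes the same setting gave 0.236% higher and 0.31% lower with LIF in Stat4-/- cells, 0.179% lower with LIF in wild-type cells, and 0.717% higher and 0.733% lower for Stat4-/- control against wild-type control. No filter gave 1 lower with LIF in Stat4-/- cells, 2 lower with LIF in wild-type cells, and 4 higher for Stat4-/- control against wild-type control. In the same order, the shares over all genes were 0.0568%, 0.0682% and 0.256%. A mean of at least 5 FPKM left 0 in each count that had been above 0, in all 4 comparisons, against 0.0113 to 0.283% of all genes. Without the sharing genes, the LIF counts were 1 higher in Stat4-/- cells and 1 higher and 0 lower in wild-type cells, and the genotype counts were 1 higher and 0 lower with LIF and 0 higher and 0 lower without. No share over all genes was computed for that alternative. Of the named genes, 253 values stayed on their side of the threshold, 25 lost the call and 1 gained it; the LIF coefficient of Hist2h4 changed sign, from -0.002 to 0.003, under median-of-ratios scaling. Counts of other lists held in 130 values and moved in 10. The cause of these changes was not tested. Depth limits the 31 genes under 1 FPKM, where single fragments weigh most.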

Other observations

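Among the genes under 1 FPKM on average, some were above 0 in both libraries of 1 genotype and at 0 in both of the other. Hist1h2bl was at 0.82 and 2.19 FPKM in Stat4-/- LIF and control and listed at 0 in both wild-type libraries, and Hist1h1b was at 0.14 and 0.06 FPKM in Stat4-/- LIF and control and listed at 0 in both wild-type libraries. Hist1h4j was listed at 0 in both Stat4-/- libraries and at 0.33 and 0.49 FPKM in wild-type LIF and control. Hist1h4k was at 1.53 and 1.89 FPKM in Stat4-/- LIF and control, against 0 and 0.33 FPKM in wild-type LIF and control. These genes were below the filter of the reported test. At RefSeq length, Hist1h1b had an estimated 3.1 and 1.1 fragments in Stat4-/- LIF and control, and Hist1h4j 3.1 and 5.0 in wild-type LIF and control. Both are near the floor of detection. Hist1h2bl had 10.7 and 24.0 in Stat4-/- LIF and control, and Hist1h4k 17.3 and 17.9. The share of all low genes with such a pattern was not computed. With no filter, limma gave genotype coefficients of 1.23 for Hist1h4k, 1.27 for Hist1h2bl, -0.49 for Hist1h4j and 0.14 for Hist1h1b. They were picked here for their pattern over the genotypes, so these coefficients are no separate support for it. Hist1h4k and Hist1h2bl share 86.2% and 88.6% of their sequence words with other genes. The coding sequences of Hist1h4k and Hist1h4j differ at 5 of 309 bases. Single values of Hist1h4k, Hist1h2bl and Hist1h4j therefore depend on how reads were shared. The shared words are fewer for Hist1h4j, at 29.4%, and for Hist1h1b, at 3.9%. Hist1h2aa and Hist1h2ba, a divergent pair known from testis, differed in level: Hist1h2aa was at 0.64 and 0 FPKM in Stat4-/- LIF and control and 0.11 and 0 FPKM in wild-type LIF and control, whereas Hist1h2ba was at 3.06 and 2.20 FPKM in Stat4-/- LIF and control and 3.11 and 3.42 FPKM in wild-type LIF and control. The counts of histone cluster genes above 0 were 49 and 40 in Stat4-/- LIF and control and 45 and 42 in wild-type LIF and control. Estimated depth in the same order was 27.6, 23.2, 22 and 24.2 M fragments, and the highest count was in the deepest library. No share over all genes was computed for these counts, and the part of depth in them was not tested.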
